A study of Mus musculus with 9 samples.

Results

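Long intergenic noncoding RNAs (lincRNAs) are transcripts that lie between protein-coding genes and carry no annotated protein. The lincRNAs described here are the genes of that biotype in GENCODE release vM21 whose CPM, here the count scaled by the library's total, reached 2 in all 3 libraries of at least one of 3 groups of mouse livers. They were chosen by these measured levels, which took in 213 of the 5610 lincRNA genes in the count files. All 213 also entered the test of differential expression, which covered 472 lincRNA genes and 17704 genes in all. Of the 213, 70 reached the level in all 3 groups, 86 in WT alone, 20 in FMT-Con A and WT, 18 in FMT-Con A and Con A, 10 in FMT-Con A alone, 6 in Con A alone and 3 in Con A and WT. The 3 lincRNAs just inside the threshold were Gm28856, Gm43848 and Gm44117, with 2.008, 2.01 and 2.02 CPM in the lowest library of their best group. The 3 just outside were Gm19710, Gm38832 and Mir142hg, with 1.999, 1.981 and 1.968 CPM.

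Polyadenylated RNA of whole liver was sequenced from C57BL/6J mice, with 3 libraries in each group. FMT-Con A mice were gavaged for 4 weeks with a faecal suspension from mice of the Con A model of autoimmune hepatitis and then received 10 mg/kg concanavalin A by the tail vein on the day of sampling. Con A mice received PBS during the same weeks and the same injection, and WT mice received PBS in both steps. Concanavalin A, a lectin of jack beans, stimulates T cells and gives mice an acute immune-mediated hepatitis. No group received the transferred faeces without the lectin, so that effect on its own was not measured. Nothing in the labels ties a library number to an animal beyond the number itself, so p-values here speak of differences among these libraries, which may be technical. The labels call the mice male in one field and female in another. The summed level of 4 Y-linked genes was 191 to 460 normalised CPM in the 9 libraries, and Xist, which is made from an inactive X chromosome, stayed between 1.04 and 6.36.

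lincRNAs act in several ways that are known from other work. Some build nuclear bodies, such as NEAT1 in paraspeckles, some act on genes beside them on the same chromosome, and some are mainly precursors from which microRNAs or small nucleolar RNAs are cut. Others, among them H19 and Meg3, are made from only the maternal chromosome of an imprinted cluster, and H19 is abundant in fetal liver and falls silent there after birth. Many lincRNAs are specific to a cell type, so in whole liver a level can follow the mix of cells. In these bulk libraries fewer cells of a type and less RNA per cell cannot be told apart.

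Library totals ran between 20513051 and 29466806 counts. Hepatocyte markers summed to 44364 to 53441 normalised CPM in FMT-Con A, 67338 to 79238 in Con A and 59508 to 70019 in WT, so liver genes were abundant in every library. The sum does not rank the groups. Of these 10 markers, 4 were higher and 2 lower in Con A than in WT and 4 did not pass, against 32.5% and 30.9% of all genes. Among the 4 was Fgb, with a mean of 2095 in WT and 18173 in Con A. Mitochondrial transcripts took 7.44% to 11.7% of the counts in FMT-Con A, 5.03% to 9.96% in Con A and 19.6% to 22.4% in WT. FMT-Con A 1 and 3 stood apart. The summed level of 24 skeletal muscle genes was 20657, 2135 and 20415 normalised CPM in FMT-Con A 1, 2 and 3, 14.0, 26.2 and 2446 in Con A 1, 2 and 3, and 63.6, 54.8 and 67.5 in WT. For named lincRNAs whose FMT-Con A call was lost without FMT-Con A 1 and 3, the log2 fold change of that fit is therefore given. That fit leaves FMT-Con A 2 alone in its group, so a lost call there is not read. FMT-Con A 2 itself held 2135 normalised CPM of the muscle genes.

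The 213 lincRNAs took a small part of each library, and a pair of genes held most of it. They took 0.735%, 0.532% and 0.748% of the counts in FMT-Con A, 0.582%, 0.759% and 0.516% in Con A, and 1.02%, 1.02% and 0.931% in WT. All 3 WT libraries lay above the other 6. Malat1 and Neat1 together made up 63.8% to 71.2% of those counts in every library. Outside that pair the levels were low, and the median over the 213 of a group's mean level was 2.98 normalised CPM in FMT-Con A, 2.69 in Con A and 4.75 in WT. Divided by exon length, the highest mean levels over the 9 libraries were those of Malat1 (477 CPM per kb), AW112010 (306), Neat1 (85.9), Gm48199 (72.0), C730036E19Rik (46.2), Gm30262 (43.3), AC117816.1 (38.6), Gm20186 (31.5), H19 (27.7) and Gm8883 (27.5). The median lincRNA of the 213 had 2370 exon bases, against 1420 for the 259 other tested lincRNAs and 4380 for the tested protein-coding genes, and 33 of the 213 had a single exon.

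Con A against WT gave 175 calls in this gene class, close to the 165 of FMT-Con A against WT. Of the 213 lincRNAs, 46 were higher and 129 lower in Con A at an adjusted p under 0.05 in edgeR's quasi-likelihood test, and 38 did not pass. Among all genes tested, 32.5% were higher and 30.9% lower. The median log2 fold change was -1.13 over the 213 lincRNAs, 0.12 over the 13563 tested protein-coding genes and 0.01 over all genes. The rule itself reads these libraries, so part of that split is fixed by it: a lincRNA that reached 2 CPM in WT alone had to be lower elsewhere. Of the 70 that reached 2 CPM in every group, 15 were higher, 36 were lower and 19 did not pass. Of the 259 tested lincRNAs below the rule, 47 were higher, 107 were lower and 105 did not pass. When each library was left out in turn, 155 of the 175 calls were made every time.

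**Figure D1:**
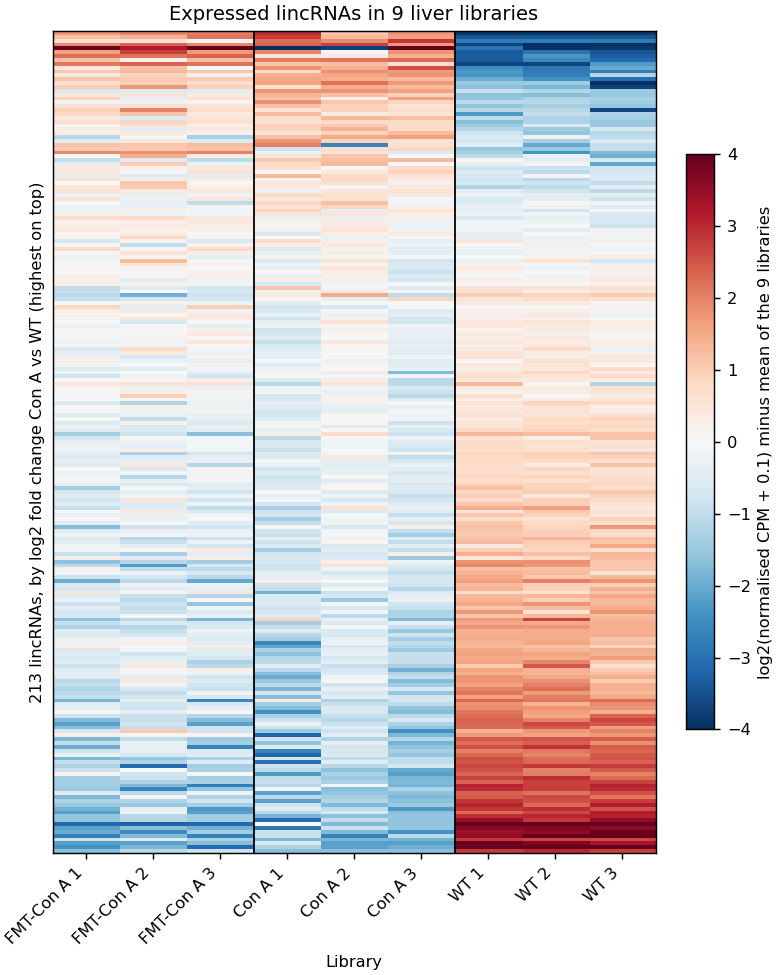
Each row is 1 of the 213 lincRNAs and each column 1 library; colour is the log2 of normalised CPM plus 0.1, minus the row's mean over the 9 libraries, and rows run from the highest to the lowest log2 fold change of Con A against WT. The lower part of the map, which holds most rows, is red in the 3 WT libraries, and 129 of the rows were called lower in Con A than in WT.

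**Figure D2:**
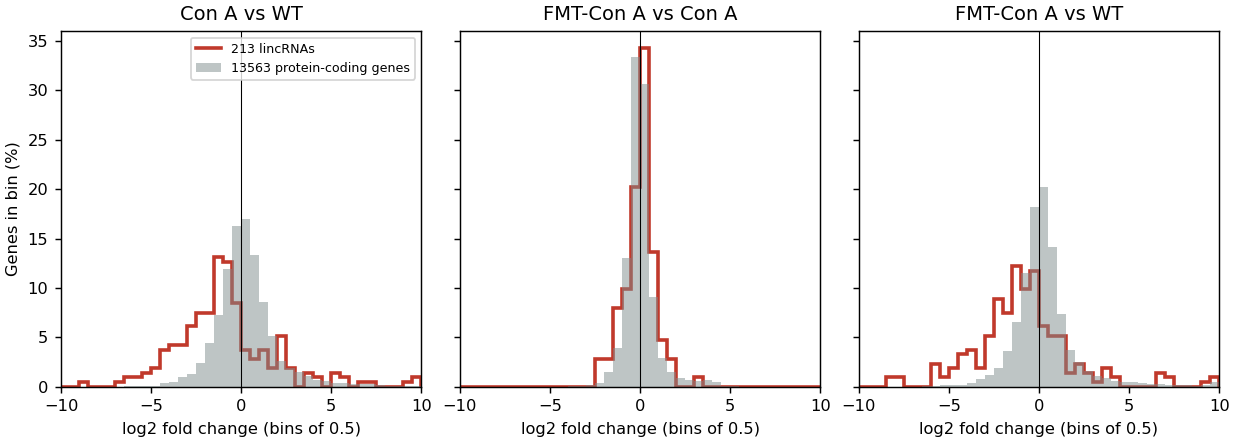
Share of genes (y axis, %) in bins of 0.5 of the log2 fold change (x axis) for the 213 lincRNAs (line) and the 13563 tested protein-coding genes (filled), with values beyond the axis counted in the last bin. The line is shifted to the left against WT, with a median of -1.13 in Con A, and lies around 0 for FMT-Con A against Con A, with a median of 0.13.

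The most abundant nuclear RNAs went in opposite directions. Malat1 (chromosome 19, 5795690 to 5802672, minus strand, GRCm38), a nuclear speckle RNA of nearly all cell types, had 2240, 2048 and 2358 normalised CPM in FMT-Con A, 2344, 3216 and 1960 in Con A, and 5258, 5593 and 4958 in WT. No library of the lectin groups reached the lowest WT library. Malat1 was lower in Con A by a log2 fold change of -1.07 ± 0.20 (SE, adjusted p = 0.0012). Its neighbour Neat1 (chromosome 19, 5824708 to 5845478, minus strand), the RNA scaffold of paraspeckles, had 2448, 1443 and 2398 in FMT-Con A, 2322, 2498 and 1576 in Con A, and 1108, 1311 and 948 in WT. Every lectin library lay above every WT library, and Neat1 was higher in Con A by 0.93 ± 0.26 (adjusted p = 0.0101). In FMT-Con A it was higher than in WT by 0.90 ± 0.26 (adjusted p = 0.0128), and with FMT-Con A 1 and 3 left out by 0.36.

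Of 12 protein-coding genes for paraspeckle proteins, 7 were higher in Con A than in WT, 1 was lower and 4 did not pass, against 32.5% and 30.9% of all genes. Pspc1 had 21.1, 16.3 and 17.9 normalised CPM in Con A and 5.08, 4.96 and 4.43 in WT, a log2 fold change of 1.93 (adjusted p = 1.01e-05). Sfpq and Nono, the other core paraspeckle proteins of the same family, were higher by 1.08 and 0.62. Tardbp, which encodes the RNA-binding protein TDP-43, was the one that was lower, by -0.85. 2900097C17Rik, a single-exon gene known as Norad whose RNA binds Pumilio proteins, had 112, 95.3 and 115 in FMT-Con A, 136, 87.0 and 144 in Con A, and 47.2, 46.7 and 48.2 in WT. Both lectin groups lay above WT without overlap, FMT-Con A by 1.18 ± 0.18 (adjusted p = 0.00044) and Con A by 1.37 ± 0.18 (adjusted p = 0.000133).

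AW112010 had the highest level per kb among the lincRNAs that were higher in Con A. In mouse macrophages its RNA is known to be translated into a small protein of the mucosal immune response, although its annotation is noncoding. It had 255, 276 and 242 normalised CPM in FMT-Con A, 479, 428 and 355 in Con A, and 59.3, 57.5 and 65.0 in WT, so the 3 groups did not overlap. The log2 fold change was 2.80 ± 0.16 in Con A against WT (adjusted p = 6.82e-07) and 2.09 ± 0.15 in FMT-Con A against WT (adjusted p = 4.4e-06). Against Con A it was lower in FMT-Con A by -0.71 ± 0.15 (adjusted p = 0.0145), a call lost without Con A 1, FMT-Con A 1 or FMT-Con A 3 (log2 fold changes of -0.69 to -0.59, adjusted p of 0.0637 to 0.0659). Without both FMT-Con A 1 and 3 it was -0.61. Markers of some immune cells were higher in Con A too, and those of macrophages went both ways. The summed level of 12 T and NK cell markers was 21.2 to 27.5 in FMT-Con A, 49.7 to 85.5 in Con A and 9.93 to 11.5 in WT, and 9 of the 12 were higher and 1, Cd4, was lower in Con A than in WT, against 32.5% and 30.9% of all genes. The sum of 9 neutrophil markers was 206 to 332 in FMT-Con A, 274 to 478 in Con A and 9.13 to 14.7 in WT, and all 9 were higher in Con A. The sum of 10 macrophage markers was 94.8 to 165 in FMT-Con A, 181 to 200 in Con A and 186 to 257 in WT, and 4 were higher in Con A than in WT, 4 were lower and 2 did not pass. The part of these cells in the level of AW112010 was not tested. Gm14005, at the locus called Morrbid that acts on the death-promoting neighbour Bcl2l11 in short-lived myeloid cells, had 2.59 to 3.13 in FMT-Con A, 1.78 to 4.03 in Con A and 2.34 to 3.71 in WT and did not pass in any comparison, while Bcl2l11 was higher in Con A by 2.10 (adjusted p = 0.000105).

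The largest rises in Con A were from levels at or near 0 in WT. Gm29685 (chromosome 10, 107946645 to 107977834, plus strand) had 4.61, 5.41 and 5.87 normalised CPM in FMT-Con A, 11.4, 2.96 and 4.81 in Con A, and no count in any WT library. Against the floor of 3 counts over the WT group it was at least 138-fold higher in Con A and at least 117-fold higher in FMT-Con A. Lncenc1 (chromosome 13, 97434970 to 97497007, plus strand), a lincRNA known from mouse embryonic stem cells, had 2.37, 2.80 and 4.81 in FMT-Con A, 7.38, 2.62 and 3.32 in Con A, and no count in WT, which is at least 96.4-fold higher in Con A. Gm38171 also had no WT count and was at least 81.0-fold higher in Con A. All 3 passed the test (adjusted p = 7e-05, 8.18e-05 and 2.03e-05).

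1200007C13Rik reached higher levels than those 3 lincRNAs. It had 21.8, 29.3 and 22.0 normalised CPM in FMT-Con A, 29.8, 39.1 and 19.3 in Con A, and 0.366, 0.140 and 0.125 in WT, a log2 fold change of 7.10 ± 0.41 in Con A (adjusted p = 7.45e-07). It lies 98411 bases from Ptpn1, which encodes the phosphatase PTP1B, and Ptpn1 was higher by 2.55. 3930402G23Rik was higher by 5.95 ± 0.78 (adjusted p = 0.000113), with 5.66, 1.31 and 5.10 in Con A and 0.0458, 0.0936 and 0.0418 in WT. Gm49123 had 1.26, 1.16 and 2.45 in Con A, and the WT libraries held 2 counts between them. The ratio was 56.3, with a 95% counting interval of 15.2 to 471. Among the lincRNAs with the highest levels per kb, Gm48199 was higher by 3.87 ± 0.63 (adjusted p = 0.000454), Gm20186 by 3.89 ± 0.23 (adjusted p = 8.71e-07) and Gm8883 by 2.22 ± 0.14 (adjusted p = 1.4e-06). Lsm8, the protein-coding gene 372 bases from Gm20186, had 0.12 and did not pass. Over all pairs with a tested neighbour, lincRNA and neighbour had the same sign in 54.2%. Gm48199 varied within WT, with 6.78, 7.02 and 0.502 normalised CPM.

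The lincRNAs that fell included several of the most abundant ones of WT liver. C730036E19Rik (chromosome 1, 151138034 to 151142345, plus strand) had 5.81, 7.79 and 6.37 normalised CPM in FMT-Con A, 4.66, 5.24 and 5.80 in Con A, and 133, 142 and 147 in WT. The WT libraries lay far above the other 6, and the log2 fold change in Con A was -4.75 ± 0.16 (adjusted p = 6.9e-08). AC117816.1, a single-exon gene that starts 1089 bases beyond the end of A1cf on the same strand, had 11.7, 20.3 and 15 in FMT-Con A, 24.1, 17.7 and 18.6 in Con A, and 226, 235 and 223 in WT. It was lower in Con A by -3.50 ± 0.22 (adjusted p = 1.15e-06), and A1cf, which encodes a cofactor of Apob mRNA editing, was lower by -2.54. Gm30262 was lower by -2.74 ± 0.26 (adjusted p = 1.31e-05), with 11.2, 14.0 and 8.87 in Con A and 71.6, 94.0 and 62.5 in WT.

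The 6 largest falls in Con A were of lincRNAs that were nearly undetected there. Gm48010 had no count in the Con A libraries and was at least 46.6-fold lower than in WT, where it had 2.11, 2.43 and 2.05 normalised CPM. AC102159.1 had 0.262, 0.0970 and 0.124 in Con A and 15.2, 16.3 and 17.5 in WT, a log2 fold change of -6.65 ± 0.43 (adjusted p = 1.47e-06). Gm36264 fell by 6.36, A630031M04Rik by 5.95 and Gm44992 by 5.52 on the log2 scale. Gm12354 held 3 counts in the Con A libraries, and its level in WT was 71.6 times that in Con A, with a 95% counting interval of 24.2 to 350. Gm44992 shares exon bases with 4930435C17Rik on the same strand, so its reads could belong to either gene.

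**Figure D3:**
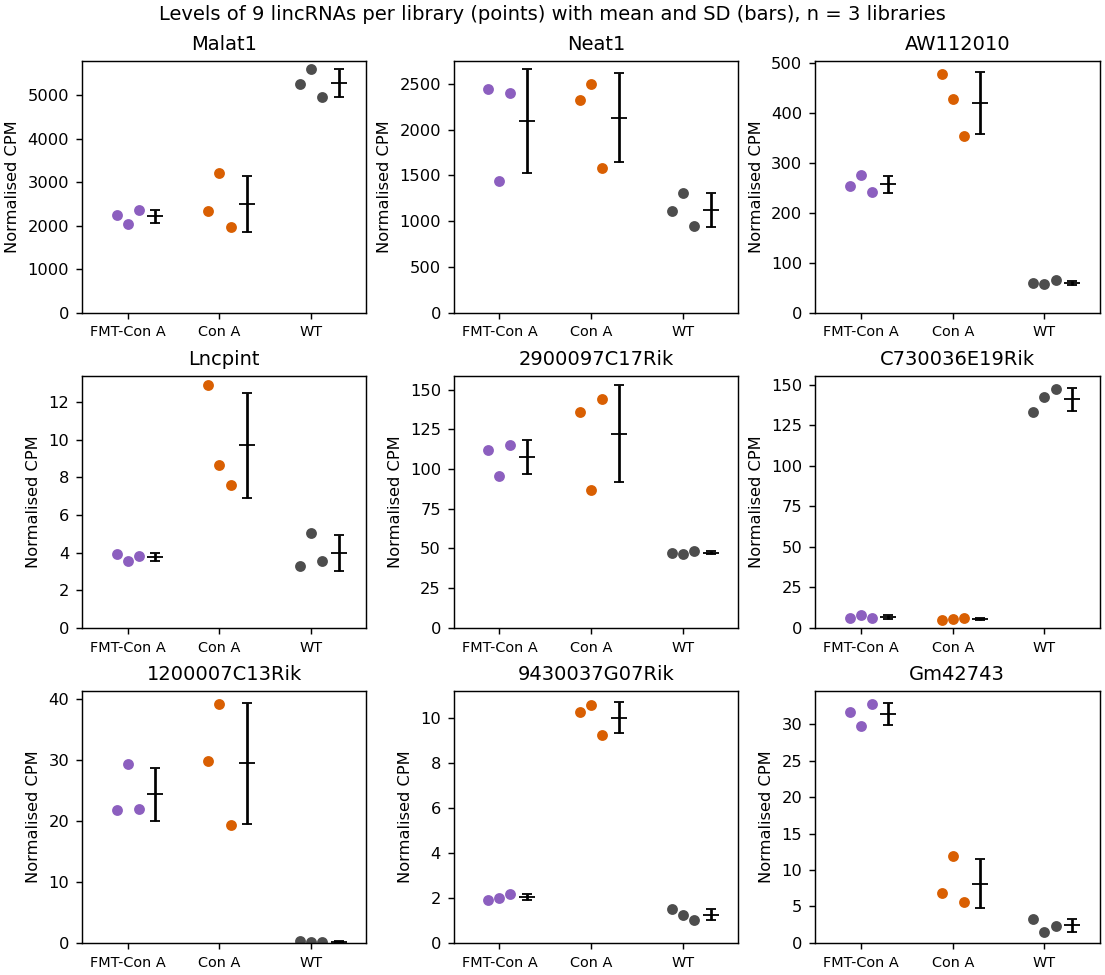
Normalised CPM (y axes, from 0) of 9 lincRNAs in each library (points) of FMT-Con A, Con A and WT, with the mean and SD of 3 libraries as bars. Malat1 and C730036E19Rik are highest in all 3 WT libraries, Lncpint and 9430037G07Rik are highest in Con A, and Gm42743 is highest in FMT-Con A, between 29.8 and 32.8.

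MicroRNA hosts were a further group with a known product. Of the 213, 9 overlap 32 mature microRNAs of the RefSeq table on their own strand, and AC157910.3 holds Mir122, the gene of the main liver microRNA. Host RNA is not mature microRNA, which polyadenylated RNA libraries do not measure. Of those 9 hosts, 6 were called in Con A against WT, where 32.5% of all genes were higher and 30.9% lower. Products of 3 of the 6, 6720427I07Rik, E130102H24Rik and Gm27028, are shown from RefSeq (GRCm38.p6) because those hosts are described as microRNA precursors here, with bases 2 to 8, the seed that pairs with targets, in capitals. The other 3 called hosts, Snhg20 (miR-6516), Ftx (miR-421 and miR-374b) and H19 (miR-675), are described with their own groups.
let-7a-5p: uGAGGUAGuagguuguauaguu
let-7f-5p: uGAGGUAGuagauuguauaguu
let-7d-5p: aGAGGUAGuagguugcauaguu
miR-101a-3p: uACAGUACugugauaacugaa
miR-30c-5p: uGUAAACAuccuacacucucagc

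The 3 let-7 microRNAs share 1 seed and come from 6720427I07Rik (chromosome 13, minus strand). That host had 4.33, 3.70 and 4.08 normalised CPM in FMT-Con A, 3.67, 6.36 and 3.48 in Con A, and 11.0, 10.8 and 10.5 in WT. It was lower in Con A by -1.26 ± 0.23 (adjusted p = 0.000976) and in FMT-Con A by -1.41 ± 0.23 (adjusted p = 0.000608), each relative to WT. E130102H24Rik, the host of miR-101a, was lower in Con A by -0.53 ± 0.16 (adjusted p = 0.016), with 5.81, 6.36 and 5.76 in Con A and 9.39, 8.66 and 7.77 in WT. That call was lost without WT 1 (-0.48, adjusted p = 0.0586). Gm27028, whose 399 exon bases hold the miR-30c-2 hairpin, went the other way. It had 4.14, 2.52 and 4.65 in FMT-Con A, 6.44, 8.93 and 5.93 in Con A, and 1.47, 1.22 and 2.09 in WT, and was higher in Con A than in WT by 2.15 ± 0.31 (adjusted p = 0.000206).

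AC157910.3, over Mir122, had 107, 82.6 and 108 normalised CPM in FMT-Con A, 20.1, 71.2 and 32.8 in Con A, and 481, 339 and 289 in WT. The 3 groups did not overlap. It was lower in Con A than in WT by -3.16 ± 0.42 (adjusted p = 0.000126), and FMT-Con A stood 1.26 ± 0.40 above Con A with an adjusted p of 0.0547. Mir17hg, which carries the proliferation-linked miR-17 to miR-92a cluster, had 9.25, 9.59 and 11.2 in FMT-Con A, 9.43, 10.3 and 6.80 in Con A, and 7.55, 7.16 and 5.06 in WT. It did not pass in Con A against WT (0.42, adjusted p = 0.104). In FMT-Con A against WT it was higher by 0.60 (adjusted p = 0.0305), a call lost without FMT-Con A 3 or WT 3 (0.53 and 0.45, adjusted p of 0.0919 and 0.097). With both FMT-Con A 1 and 3 left out it was higher by 0.54. Its products miR-17-5p and miR-20a-5p share a seed, as the RefSeq sequences show.
miR-17-5p: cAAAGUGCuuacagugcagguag
miR-20a-5p: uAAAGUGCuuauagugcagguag

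Of the snoRNA hosts, whose introns carry the guide RNAs of ribosomal RNA modification, 4 were among the 213. Snhg20 had 7.10, 7.74 and 5.91 normalised CPM in FMT-Con A, 3.35, 6.60 and 3.27 in Con A, and 24.3, 24.4 and 18.6 in WT, and was lower in Con A by -2.35 ± 0.27 (adjusted p = 5.07e-05). Epb41l4aos was lower by -0.79 ± 0.24 (adjusted p = 0.0147), and without Con A 3 by -0.59 (adjusted p = 0.0514). Snhg6 and Snhg12 did not pass, with log2 fold changes of -0.24 and 0.42. Snhg12 was higher in FMT-Con A than in WT by 0.62 (adjusted p = 0.0336), but without FMT-Con A 1, 2 or 3, WT 1 or WT 3 the adjusted p was 0.0526 to 0.0924. With both FMT-Con A 1 and 3 left out the difference was 0.71. Over the 16 tested genes of the list of snoRNA hosts, of any biotype, 6 were higher in Con A, 6 were lower and 4 did not pass, close to the 32.5% and 30.9% of all genes.

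From the X-inactivation centre, Jpx, whose RNA activates Xist, had 7.23, 8.12 and 7.82 normalised CPM in FMT-Con A, 6.07, 7.03 and 5.47 in Con A, and 15.4, 14.1 and 13.6 in WT. Both lectin groups lay below WT without overlap, and Jpx was lower in Con A by -1.21 ± 0.15 (adjusted p = 6.4e-05). Ftx, another regulator of Xist, was lower in Con A by -0.55 ± 0.21 (adjusted p = 0.0429). That call was lost in 6 of 9 fits that left out 1 library (Con A 1 or 3, FMT-Con A 1 or 3, WT 1 or 2), at -0.58 to -0.38 and an adjusted p of 0.0531 to 0.133. Xist did not pass in any comparison. It overlaps Tsix on the other strand, and the strand setting of the counting is not given in the sources used here.

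H19 was high in the same libraries as the muscle genes. It had 266, 29.6 and 262 normalised CPM in FMT-Con A 1, 2 and 3, 0, 0.146 and 55.3 in Con A 1, 2 and 3, and 0.320, 0.0468 and 0.125 in WT. The 4 libraries with 29.6 or more are the 4 in which the 24 skeletal muscle genes summed to 2135 or more. H19 was higher in FMT-Con A than in WT by 10.10 ± 2.42 (adjusted p = 0.00516) and in Con A than in WT by 6.78 ± 2.31 (adjusted p = 0.0262). FMT-Con A against Con A gave 3.32 ± 1.60 (adjusted p = 0.171). Without FMT-Con A 1 and 3, FMT-Con A against WT gave 7.45 and FMT-Con A against Con A 0.66. Without Con A 3 the difference of Con A from WT was -1.06 (adjusted p = 0.744), and without WT 1, 2 or 3 its adjusted p was 0.0674 to 0.0792. All 23 tested muscle genes were higher in FMT-Con A than in WT. Their part in the level of H19 was not tested. Meg3, from another imprinted cluster, had 9.57 to 21.0 in FMT-Con A, 4.89 to 12.0 in Con A and 10.3 to 17.5 in WT and did not pass in any comparison.

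**Figure D4:**
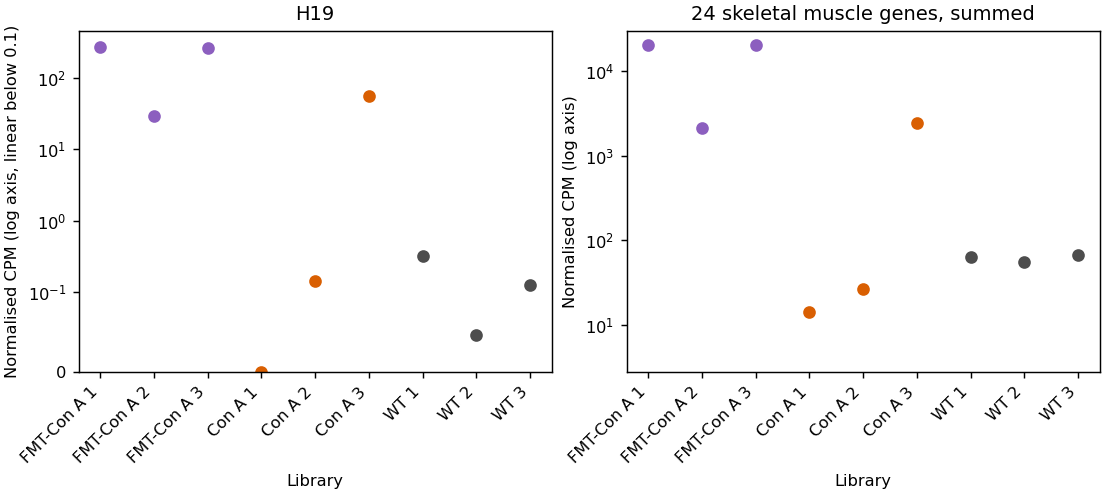
Normalised CPM (y axes, log scale, with the H19 axis linear below 0.1) of H19 and of 24 skeletal muscle genes summed, in each of the 9 libraries. FMT-Con A 1 and 3 are highest in both panels, with 266 and 262 for H19, and FMT-Con A 2 and Con A 3 come next in both.

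Few of these lincRNAs passed the test between the mice with and without faecal transfer before the lectin. Between FMT-Con A and Con A, 9 were higher, 19 were lower and 185 did not pass, against 6.26% higher and 10.6% lower among all genes. With FMT-Con A 1 and 3 left out, FMT-Con A 2 stood alone in its group, so calls lost in that fit cannot show that they depend on those libraries. All 28 called lincRNAs kept their sign in that fit. When each library was left out in turn, 8 of the 28 were called every time, 6 lower and 2 higher. In 23 of the 213, FMT-Con A 1 and 3 both exceeded 1.5 times the level of FMT-Con A 2, and in 40 FMT-Con A 2 exceeded 1.5 times both others. The same was not counted over all genes, so nothing is read from the 23 and the 40.

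The 6 lincRNAs lower in FMT-Con A in each of those 9 fits were also all higher in Con A than in WT, as were 46 of the 213. The Con A libraries enter both differences with opposite sign, so nothing is read from this. 9430037G07Rik (chromosome 9, 88595325 to 88599516, minus strand) had 1.93, 1.99 and 2.17 normalised CPM in FMT-Con A, 10.3, 10.6 and 9.24 in Con A, and 1.51, 1.26 and 1.00 in WT. The Con A libraries were highest, and FMT-Con A lay above WT without overlap. FMT-Con A was also called higher than WT in edgeR's fit. That call was lost without FMT-Con A 3 or WT 3 (log2 fold changes of 0.55 to 0.65, adjusted p of 0.0502 to 0.0575). Against Con A, 9430037G07Rik was lower in FMT-Con A by -2.30 ± 0.20 (adjusted p = 0.00147) and by -2.33 without FMT-Con A 1 and 3. Lncpint, a p53-induced lincRNA, had 3.95, 3.56 and 3.81 in FMT-Con A, 12.9, 8.64 and 7.58 in Con A, and 3.30, 5.06 and 3.55 in WT. It was lower in FMT-Con A than in Con A by -1.36 ± 0.25 (adjusted p = 0.00891) and higher in Con A than in WT by 1.29 ± 0.25 (adjusted p = 0.00121), and FMT-Con A against WT gave -0.07 (adjusted p = 0.821).

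AC127342.1 had 2.75, 3.8 and 2.56 normalised CPM in FMT-Con A, 11.4, 12.6 and 13.3 in Con A, and 5.49, 3.89 and 3.43 in WT. Its difference from Con A was -2.04 ± 0.23 (adjusted p = 0.00199). Gm19619, 73840 bases from the growth factor gene Btc, had 1.14, 2.52 and 0.954 in FMT-Con A, 6.02, 7.47 and 8.29 in Con A, and 1.65, 2.20 and 1.21 in WT, a difference from Con A of -2.26 ± 0.38 (adjusted p = 0.00651). In both genes FMT-Con A and WT overlapped and Con A stood above them. AU020206 had 19.4, 17.5 and 19.7 in FMT-Con A, 37.1, 34.6 and 30.4 in Con A, and 18.6, 16.3 and 17.3 in WT, and was lower by -0.85 ± 0.11 (adjusted p = 0.00285). Gm28068 lies 9272 bases from Ly6a, the interferon-inducible gene of the surface protein Sca-1. It had 6.28, 5.74 and 7.48 in FMT-Con A, 24, 14.3 and 12.3 in Con A, and 3.25, 3.00 and 2.55 in WT, and was lower by -1.37 ± 0.25 (adjusted p = 0.00911), beside -1.67 for Ly6a. Without FMT-Con A 1 and 3, Lncpint, AC127342.1, Gm19619, AU020206 and Gm28068 stood at -1.44, -1.71, -1.53, -0.96 and -1.55. AU020206 and Gm28068 were named here after their values were seen.

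The 2 lincRNAs higher in FMT-Con A in each fit that left out 1 library differed in where WT stood. Gm42743 had 31.6, 29.8 and 32.8 normalised CPM in FMT-Con A, 6.91, 11.9 and 5.55 in Con A, and 3.25, 1.54 and 2.38 in WT. It was higher than in Con A by 1.95 ± 0.29 (adjusted p = 0.00464), and by 1.88 without FMT-Con A 1 and 3. It shares exon bases with the histone gene Hist2h2bb on its own strand and with Gm20628 on the other, so reads of these genes cannot be told apart. 5930430L01Rik had 4.36, 2.23 and 3.89 in FMT-Con A, 0.733, 1.55 and 0.788 in Con A, and 19.9, 16.6 and 15.7 in WT, so FMT-Con A lay between the other groups. The difference from Con A was 1.78 ± 0.33 (adjusted p = 0.0102), and 1.12 without FMT-Con A 1 and 3. It shares exon bases with Gm42791 on its own strand.

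Other differences between FMT-Con A and Con A were lost with single libraries left out. Gm31583, with 0.410, 0.380 and 0.420 normalised CPM in FMT-Con A, 4.40, 1.21 and 1.41 in Con A, and 74.7, 112 and 75.2 in WT, was lower by -2.49 ± 0.52 (adjusted p = 0.0151), and at -2.51 to -2.50 its adjusted p was 0.0575 to 0.0652 without FMT-Con A 1 or 3. Gm38171 was lower by -2.02 (adjusted p = 0.0133), and without FMT-Con A 1 or 3 its adjusted p was 0.0564 to 0.0614. Gm32461 was lower by -1.67 (adjusted p = 0.0127), and without Con A 1, FMT-Con A 1 or FMT-Con A 3 its adjusted p was 0.0525 to 0.0624. In these 3 genes the difference stayed negative in each of those fits. Without both FMT-Con A 1 and 3, Gm31583, Gm38171 and Gm32461 stood at -2.58, -1.89 and -1.09. Gm49123, D130017N08Rik, 4930516B21Rik and Gm30301 were higher by 1.47, 1.52, 1.45 and 1.33 (adjusted p = 0.0365, 0.0259, 0.0325 and 0.0176). Each lost its call without Con A 1, FMT-Con A 1 or FMT-Con A 3, and in some with other libraries left out, at log2 fold changes of 1.29 to 1.5, 1.21 to 1.53, 1.14 to 1.47 and 1.14 to 1.29. Without both FMT-Con A 1 and 3 these 4 stood at 1.37, 1.25, 1.05 and 0.72.

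The 2 comparisons that share the Con A libraries can be set side by side for each gene. Of the 46 lincRNAs higher in Con A than in WT, 13 were lower in FMT-Con A than in Con A, 2 were higher and 31 did not pass. Of the 129 lower in Con A than in WT, 5 were higher in FMT-Con A than in Con A, 4 were lower and 120 did not pass. Con A enters both differences with opposite sign, so nothing is read from these counts. By group means, WT was highest in 88 lincRNAs with Con A lowest and in 58 with FMT-Con A lowest. WT was lowest in 29 with Con A highest and in 21 with FMT-Con A highest. WT lay between the others in 11 with FMT-Con A highest and in 6 with Con A highest. These orders were not counted over all genes, so they are not read as a trait of the lincRNAs.

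FMT-Con A against WT gave 43 lincRNAs higher, 122 lower and 48 that did not pass, against 31.2% higher and 27.9% lower among all genes. The median log2 fold change was -0.99 over the 213 lincRNAs. Without FMT-Con A 1 and 3, which leaves FMT-Con A 2 alone in its group, all 165 called lincRNAs kept their sign. The largest rises beside H19, Gm29685, Lncenc1, Gm38171 and 1200007C13Rik (log2 fold change 6.83) included Gm49123, which had 4.42, 4.23 and 4.96 normalised CPM in FMT-Con A and 2 counts over the WT libraries, a ratio of 153 with a 95% counting interval of 41.9 to 1270. The largest falls were of A630031M04Rik and Gm36264, with 2 and 1 counts over the FMT-Con A libraries. Their levels in WT were 396 and 442 times those in FMT-Con A, with 95% counting intervals of 109 to 3280 and 78.9 to 17500. AC102159.1 was lower by -7.88, Gm31583 by -7.73, Gm44992 by -5.86 and Gm40264 by -5.78, all with FMT-Con A libraries under 0.6 normalised CPM.

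The position of the lincRNAs relative to protein-coding genes was compared with their changes. The nearest protein-coding gene lay in divergent orientation for 65, in tandem for 93 and convergent for 30, and 25 overlapped its body. For 177 of the 213 that gene was itself tested. In Con A against WT, lincRNA and neighbour had the same sign in 96 pairs, or 54.2%, against 122 of 210 pairs (58.1%) for the tested lincRNAs outside the rule. Both were called in 86 pairs: 32 were lower together, 20 were higher together, in 30 the lincRNA was lower with a higher neighbour and in 4 the reverse held. For the tested lincRNAs outside the rule both were called in 89 pairs, split 30, 24, 31 and 4 in the same order. Across the 177 pairs Pearson's r of the log2 fold changes was 0.36, and pairs share libraries and are not independent. Of the 213, 65 share exon bases with another gene, whose reads cannot be told apart where the counting did not use strand.

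Of the divergent pairs, 21 lie within 1 kb, where both genes can share a promoter region. Both genes were called in 9 of them: 6 had a lower lincRNA beside a higher coding gene, 2 were lower together and 1 was higher together. Gm34934, 97 bases from Samd4, had 0.367, 0.534 and 0.497 normalised CPM in Con A and 4.03, 3.04 and 4.39 in WT, a log2 fold change of -3.02 (adjusted p = 1.46e-05), while Samd4, which encodes an RNA-binding repressor of translation, was higher by 1.91 (adjusted p = 0.00296). C030037D09Rik, 132 bases from Msi2, was higher by 1.29 and Msi2 by 0.96. Gm26608, 258 bases from Insig1, which encodes a regulator of sterol synthesis, was lower by -5.12 (adjusted p = 7.22e-06), with 0.157, 1.02 and 0.622 in Con A and 23.3, 15.4 and 25 in WT, whereas Insig1 had -0.21 and did not pass. These 3 pairs were named after their values were seen. At longer range, Lncenc1 and Enc1, 181936 bases apart, were both higher, Enc1 by 4.86, and so were Gm8883 and Fn1, the fibronectin gene 234912 bases away, by 2.22 and 2.14. Among 46 pairs over 10 kb apart with both genes called, 27 went the same way. In 15 the lincRNA was lower with a higher neighbour, and in 4 the reverse held. For the tested lincRNAs outside the rule, 44 such pairs split 27, 14 and 3 in the same order.

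**Figure D5:**
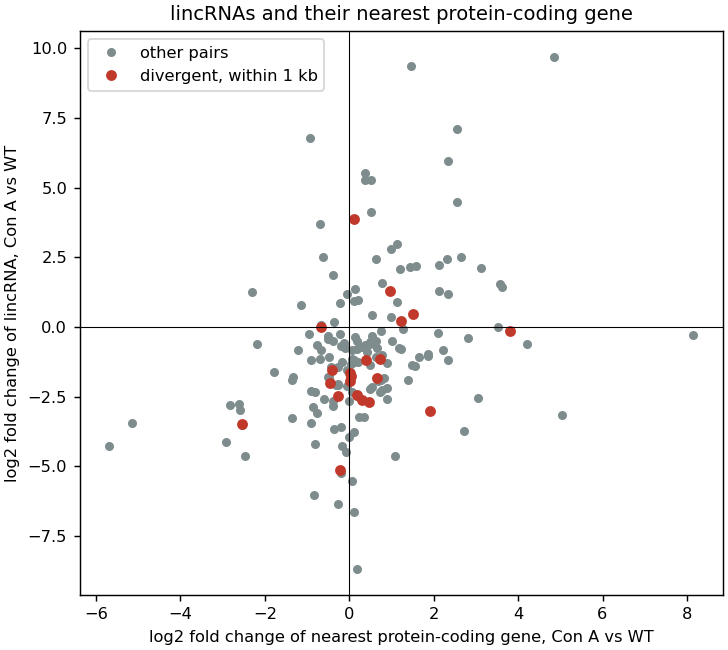
Log2 fold change in Con A against WT of each lincRNA (y axis) and of its nearest protein-coding gene (x axis) for 177 pairs, with the 21 divergent pairs within 1 kb in red. Most points lie below the horizontal line, and 96 of the 177 pairs lie in the quadrants of equal sign.

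The RefSeq promoter table (GRCm38.p6, 250 bases before to 50 after each start) matched 112 of the 213 by symbol, and in 69 its start lay within 100 bases of the annotated one. Searched on both strands, the STAT-type motif TTCNNNGAA was in 10.1% of those 69 windows and in 8.3% of all 32851 windows of the table. The interferon-type motif, a pair of GAAA blocks set apart by any 2 bases, was in 2.9% of the 69 and 3.44% of all. The NF-kappaB motif and the HNF4A motif CAAAGTCCA were in 0 of the 69 and in 0.411% and 0.475% of all. The windows shown belong to a pair of lincRNAs with no count in WT and to a pair that was abundant in WT and lower in Con A. Capitals mark the only match, an interferon-type motif on the minus strand in Lncenc1.
Gm29685, chr10:107946395-107946694, plus strand: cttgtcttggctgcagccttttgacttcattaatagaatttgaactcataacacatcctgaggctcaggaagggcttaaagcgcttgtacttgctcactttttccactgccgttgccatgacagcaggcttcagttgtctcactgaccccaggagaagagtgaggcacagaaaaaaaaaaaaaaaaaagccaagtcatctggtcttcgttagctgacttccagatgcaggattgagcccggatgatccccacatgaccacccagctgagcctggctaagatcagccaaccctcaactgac
Lncenc1, chr13:97434720-97435019, plus strand: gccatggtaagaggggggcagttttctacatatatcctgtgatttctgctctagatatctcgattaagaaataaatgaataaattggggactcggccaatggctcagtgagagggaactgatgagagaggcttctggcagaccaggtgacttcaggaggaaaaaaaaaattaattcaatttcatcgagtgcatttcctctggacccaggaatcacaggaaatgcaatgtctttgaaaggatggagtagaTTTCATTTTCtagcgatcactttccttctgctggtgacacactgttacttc
C730036E19Rik, chr1:151137784-151138083, plus strand: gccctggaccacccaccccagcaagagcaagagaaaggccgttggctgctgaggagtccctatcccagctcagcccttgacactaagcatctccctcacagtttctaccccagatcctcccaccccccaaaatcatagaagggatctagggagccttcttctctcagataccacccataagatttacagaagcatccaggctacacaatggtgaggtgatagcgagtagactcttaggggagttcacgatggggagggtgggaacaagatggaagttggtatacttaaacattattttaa
Gm31583, chr16:24090016-24090315, minus strand: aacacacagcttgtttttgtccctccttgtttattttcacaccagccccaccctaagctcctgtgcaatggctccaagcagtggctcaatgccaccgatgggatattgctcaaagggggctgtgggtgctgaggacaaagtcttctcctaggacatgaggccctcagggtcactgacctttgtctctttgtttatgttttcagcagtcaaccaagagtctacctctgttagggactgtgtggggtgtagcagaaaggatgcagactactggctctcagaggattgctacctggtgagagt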

How the data were processed

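The authors deposited 1 file of raw counts for each library, with a whole number for every gene. The tools named in the submitters' processing notes are CASAVA, HISAT2 and featureCounts, and the build is GRCm38 (mm10); versions, annotation release, strand setting and the treatment of reads with several places are not given in the sources used here. Gene IDs were matched to GENCODE vM21 for biotype, exons and position. Counts were tested with edgeR 4.0.16 (R 4.3.3): TMM scaling, filterByExpr by group (minimum count 10, minimum total 15), one quasi-likelihood fit of all 9 libraries with 6 residual degrees of freedom, and Benjamini-Hochberg adjustment over 17704 genes at 0.05. Normalised CPM uses TMM-scaled library sizes, and levels per kb divide it by exon bases. The procedure was tested on simulated counts. Ratios with 3 or fewer counts in a group carry exact 95% intervals for counting error only.

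The lincRNAs and gene lists were chosen with earlier results of these data known. Named genes are those in the lists by role, the 10 highest per kb, the 6 largest rises and falls of each comparison among non-overlapping calls of at least 2-fold, the 5 largest opposite calls, the lowest p in each direction between FMT-Con A and Con A and the 3 on either side of the threshold; others are said to be chosen after their values were seen, or host a microRNA. DESeq2 1.42.0, other scaling, filters, membership rules, a replicate block and left-out libraries were tried as alternatives. One neighbouring gene and one promoter motif that were computed are not reported here.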

Additional observations from a re-analysis of the deposited data

How the results depend on the processing

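In edgeR's fit, 46 lincRNAs were higher and 129 lower in Con A than in WT, 43 higher and 122 lower in FMT-Con A than in WT, and 9 higher and 19 lower in FMT-Con A than in Con A. Membership at a CPM of at least 5, which holds 117 lincRNAs, gave 28 higher and 70 lower in Con A against WT, 27 and 66 in FMT-Con A against WT, and 31 rather than 52 neighbour pairs called in one direction. Without members whose exons overlap another gene, 27 of the remaining 148 were higher in FMT-Con A than in WT. FMT-Con A against Con A moved most. The number higher became 19 with DESeq2 and 19 with no filter on low counts. It was 16 with membership at a CPM of at least 1, but that rule holds 311 lincRNAs, so the set grew too. With FMT-Con A 1 and 3 left out, edgeR called 0 higher, 2 lower and 99 genes in all, and FMT-Con A against WT had 6957. With Con A 3 left out too, a choice made after seeing the data, it called 2 higher, 7 lower and 492 genes.

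Leaving out each library in turn gave 42 to 46 higher, 116 to 135 lower and 9937 to 12101 genes in Con A against WT, and 37 to 44, 109 to 123 and 9060 to 11349 in FMT-Con A against WT. Neighbour pairs called in one direction numbered 42 to 59. FMT-Con A against Con A gave 2 to 30 higher, 6 to 24 lower and 664 to 4053 genes. Its counts moved by over 1.5 times without Con A 1 (2 higher, 9 lower, 812 genes), FMT-Con A 1 (2, 6 and 664), FMT-Con A 3 (2, 7 and 778), Con A 2 (30 higher) and WT 1 (12 lower, 1828 genes). In all 9 of these fits, 155 of 175 calls held in Con A against WT, 140 of 165 in FMT-Con A against WT and 8 of 28 in FMT-Con A against Con A.

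H19 in Con A against WT spanned -1.06 to 7.63 over the left-out libraries. It was -1.06 without Con A 3, and -1.06 without Con A 3 and FMT-Con A 1 and 3. Lncpint in FMT-Con A against WT, not called, spanned -0.19 to 0.14. For the named lincRNAs, 42 comparisons were neither called nor given as values, of which 8 passed under some alternative and 18 changed sign under one. The cause of these changes was not tested.

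Libraries share replicate numbers across groups, and a fit with the number as a block gave 46 higher and 130 lower in Con A against WT, 45 and 121 in FMT-Con A against WT, 10 and 16 in FMT-Con A against Con A, and 55 neighbour pairs. Deviations of same-numbered libraries correlated at -0.216 to 0.344, and not every library correlated best with its own number. This check gave no ground to pair the samples by number, and it cannot exclude a pairing. The 3 libraries of each group and their depth limit what can be called at low levels.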

Other observations

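Noncoding genes on the lists by role that the rule leaves out, by biotype or, for the lincRNA Mir155hg, by level, also changed. Among snoRNA hosts, Gas5 had 103, 95.7 and 102 normalised CPM in FMT-Con A, 66.0, 99.0 and 55.0 in Con A, and 40.8, 50.3 and 34.4 in WT, and was higher in Con A than in WT by 0.81 (edgeR adjusted p = 0.00806). Zfas1, Snhg1 and Snhg5 were higher by 0.62, 1.06 and 1.20, while Snhg8, Snhg14 and Dancr were lower by -0.77, -1.14 and -1.03. Firre, an X-linked RNA that organises nuclear contacts, had 42.7, 36.8 and 44.7 in FMT-Con A, 35.0, 47.8 and 30.3 in Con A, and 121, 139 and 118 in WT, and was lower in Con A by -1.74 (adjusted p = 2.1e-05). Mir99ahg, host of the miR-99a cluster, was lower by -3.07 (adjusted p = 6.78e-06), and Mir155hg, host of the lymphocyte and macrophage microRNA miR-155, was higher by 4.50 (adjusted p = 0.000237), with 1.05, 2.91 and 1.45 in Con A and 0, 0.140 and 0.0836 in WT. Nctc1, which lies near H19, had 21.5, 1.85 and 20.6 in FMT-Con A, 0, 0 and 2.61 in Con A and no count in WT.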
